A study of Mus musculus with 6 samples.

Results

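Molecular chaperones of the heat shock protein, DnaJ and CCT families were followed across bulk RNA sequencing libraries of mouse retinal ganglion cells, the output neurons of the retina that send axons to the brain. Members were the genes of the raw count table with symbols starting Hspa, Hspb, Hspd, Hspe, Hsph, Hsp90, Dnaja, Dnajb, Dnajc or Cct, without pseudogenes and without Hspbap1 and Hspbp1, which gave 69 of 22413 genes. They fell into 13 Hspa, 4 Hspb, 2 Hspd and Hspe, 1 Hsph, 3 Hsp90, 4 Dnaja, 11 Dnajb, 23 Dnajc and 8 Cct genes. The 3 knockout libraries came from adult mice of the genotype Tgfbr1flx/flx;Vglut2Cre/+, in which Cre recombinase is driven from Slc17a6, the locus of the glutamate transporter Vglut2. The 3 control libraries came from adult Tgfbr1flx/flx;Vglut2+/+ mice, so both genotypes carried the floxed Tgfbr1 alleles and neither is wild type at that gene. Cre is made wherever the driver gene is active, so in the whole mouse it is not limited to ganglion cells. The labels do not say whether a library is 1 animal or a pool, so a p-value reflects the scatter among these libraries, part of which may be technical.

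Chaperones bind proteins that are unfolded or newly made and help them to fold, to cross membranes or to be degraded. Hsp70 proteins (Hspa genes) hold short hydrophobic stretches in a cycle driven by ATP, DnaJ proteins bring them substrates and start ATP hydrolysis, and Hsp110 proteins (Hspa4, Hspa4l and Hsph1) exchange the nucleotide. Hsp90 acts later on clients such as kinases and steroid receptors, and small heat shock proteins (Hspb genes) keep unfolded proteins from aggregating. Chaperonins are rings that enclose a protein while it folds: Hsp60 with Hsp10 (Hspd1 and Hspe1) acts on proteins imported into mitochondria, and CCT acts in the cytosol on proteins such as actin and tubulin. Stress activates a subset of these genes through heat shock factor 1, which binds repeated GAA units called heat shock elements. Long-lived neurons with long axons depend on this system for synaptic vesicle cycling and axonal transport.

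Promoter sequences are shown for 4 members that stood far apart in level and whose windows matched letters of the heat shock element. Hspe1 and Hsph1 held a run of 3 units, and Hspa1a and Hspa1b only a shorter match. Binding was not measured. RefSeq windows on GRCm38.p6, from 250 bases before to 50 after a start, were matched by symbol for 57 of the 69 members, in 75 windows. The sequence GAANNTTCNNGAA or its reverse complement, 3 alternating units in a row, stood in 6 of these 75 windows (8%), from 4 genes (Hspe1, Hspd1, Hsph1 and Dnajb6), and in 198 of all 32851 windows (0.603%). The shorter GAANNTTC, which is its own reverse complement and is part of the longer sequence, stood in 16 of the 75 windows (21.3%) and in 7.86% of all windows. Hspe1 (chr1:55087898-55088197, plus strand) held a run that begins 89 bases before its start, and Hspd1, read from the opposite strand, has a start whose window shares 285 of its 300 bases with this one. Hsph1 (chr5:149636287-149636586, minus strand) held its match 36 bases after the start, and an overlapping window of another Hsph1 start held the same match. Overlapping windows were counted apart, so the share of windows counts some of these bases more than once. Hspa1a (chr17:34972107-34972406, minus strand) and Hspa1b (chr17:34959189-34959488, minus strand) held the shorter match 104 bases before the start and differed from each other at 4 of 300 bases. Capitals mark the matched bases, and all sequences run 5′ to 3′ on the strand of the gene.
Hspe1: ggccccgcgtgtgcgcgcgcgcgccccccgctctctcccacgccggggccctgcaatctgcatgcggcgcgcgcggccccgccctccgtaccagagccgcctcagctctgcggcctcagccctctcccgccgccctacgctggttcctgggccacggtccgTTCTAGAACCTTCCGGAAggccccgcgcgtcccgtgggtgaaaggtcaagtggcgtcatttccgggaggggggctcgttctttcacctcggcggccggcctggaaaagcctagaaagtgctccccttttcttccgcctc
Hsph1: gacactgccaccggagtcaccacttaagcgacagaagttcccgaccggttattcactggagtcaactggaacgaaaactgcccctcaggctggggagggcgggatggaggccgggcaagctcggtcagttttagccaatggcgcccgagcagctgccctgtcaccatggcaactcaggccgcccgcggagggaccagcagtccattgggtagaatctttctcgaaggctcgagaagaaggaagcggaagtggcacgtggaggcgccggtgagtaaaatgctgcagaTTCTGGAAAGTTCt
Hspa1a: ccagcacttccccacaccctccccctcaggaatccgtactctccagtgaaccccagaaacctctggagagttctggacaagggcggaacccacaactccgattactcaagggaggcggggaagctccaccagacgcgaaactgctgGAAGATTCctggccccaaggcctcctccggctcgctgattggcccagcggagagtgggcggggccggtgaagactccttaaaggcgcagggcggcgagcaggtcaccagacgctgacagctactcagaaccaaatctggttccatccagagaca
Hspa1b: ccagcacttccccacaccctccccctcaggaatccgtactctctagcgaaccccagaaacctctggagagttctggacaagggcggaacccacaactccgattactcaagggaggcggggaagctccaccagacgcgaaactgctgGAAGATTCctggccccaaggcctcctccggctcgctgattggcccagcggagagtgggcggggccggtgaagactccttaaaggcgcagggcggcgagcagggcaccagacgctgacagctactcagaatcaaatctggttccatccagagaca
A match describes these letters only. Hspe1 was among the most abundant members and Hspa1a and Hspa1b were among the least, with values given below.

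The libraries held 7486359 to 21126291 gene counts, and a gene at 0 could still lie at up to 3 counts, or 0.142 to 0.401 CPM (counts per 1e6 of the library's total). Intervals and floors cover counting error only. The targeted gene Tgfbr1 was counted 46, 0 and 793 times in the 3 knockouts, against 1, 0 and 1538 times in the 3 controls; these counts cover the whole gene, so they do not check the deletion. Of 16 ganglion cell markers, each knockout detected 9 to 12 at 10 counts or more and each control 7 to 11. Their summed level was 3137 to 3924 CPM in the knockouts, against 3654, 4930 and 895 CPM in controls 1, 2 and 3. Sncg, Nefm and Ebf1 were among the markers detected in all 6 libraries, while Pou4f2 and Nefh were at 0 or 1 count in 5 or more libraries and Slc17a6 was at 0 in control 3. Control 3 also held 8424 CPM of 14 endothelial markers, where the other libraries held 36.1 to 851 CPM. Other cell type lists were uneven too. Bipolar and horizontal markers summed to 1247, 1095 and 531 CPM in knockouts 1, 2 and 3. Controls 1, 2 and 3 were at 520, 189 and 642 CPM. Microglia and macrophage markers summed to 203 CPM in knockout 1 and to 0.0611 to 9.23 CPM elsewhere. Pericyte sums spanned 0.0861 to 546 CPM over the libraries, and rod and cone sums 0 to 136 CPM. Müller glia and astrocyte sums spanned 49.0 to 509 CPM and amacrine sums 178.5 to 799 CPM.

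No chaperone gene passed the comparison of knockout with control. Low-count filtering left 47 of the 69 members among the 5727 genes of the edgeR quasi-likelihood fit, and 0 members had a Benjamini-Hochberg adjusted p under 0.05 (0% of all tested genes did, the smallest adjusted p over all genes being 0.681). At an unadjusted p under 0.05 there were again 0 members, where 4.91% of all tested genes lay, 4.49% higher and 0.419% lower in the knockout. The smallest unadjusted p of a member was 0.138, for Hsp90aa1. Each log2 fold change is given as knockout over control, with an SE. This SE is the absolute log2 fold change divided by the square root of the quasi-likelihood F. It is approximate, above all where a genotype lies at or near 0. The log2 fold changes were positive in 28 and negative in 19 of the 47 tested members, with a median of 0.24. Over all tested genes 54.2% were positive and the median was 0.14. With DESeq2's size factors in place of TMM the members' median was 0.00 and that of all tested genes -0.13, and 4 members, Dnajc8, Dnajc30, Hsp90b1 and Hspa13, turned from positive to negative. In bulk RNA, fewer cells of a type and less RNA per cell cannot be told apart.

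**Figure D1:**
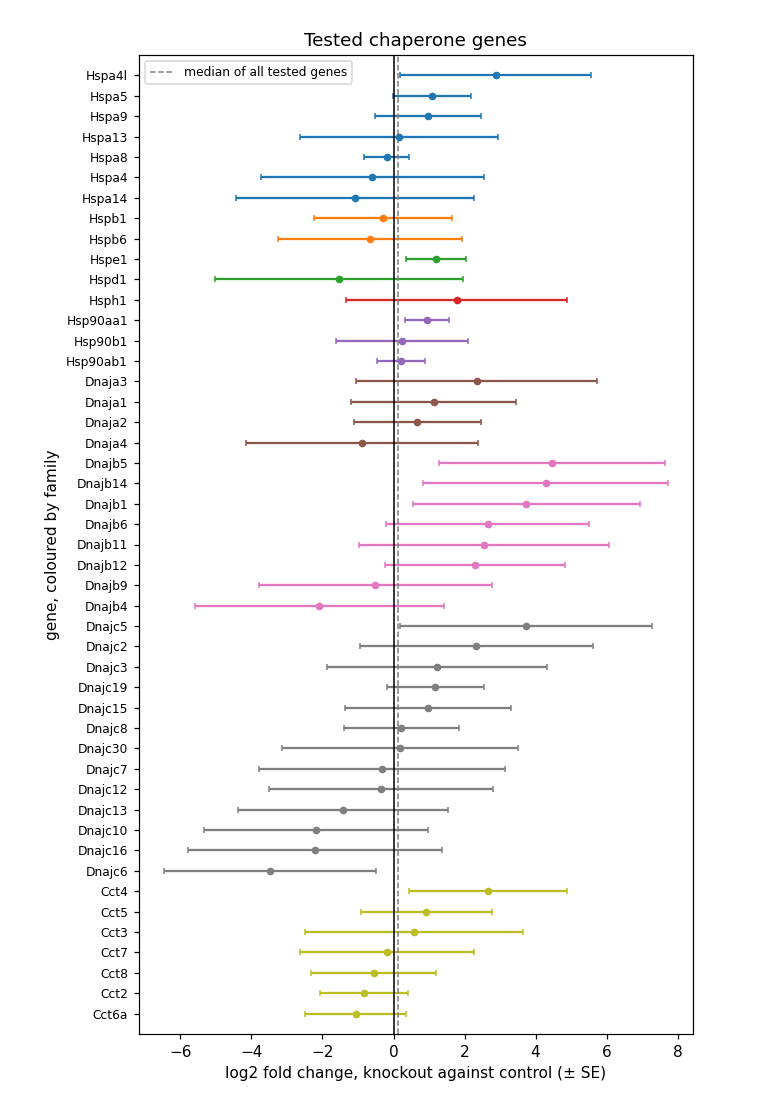
Log2 fold change of the 47 tested chaperone genes, knockout against control, on the horizontal axis, with bars of 1 SE. Genes run down the page by family (colours), and the dashed line is the median of all 5727 tested genes, 0.14. Hsp90aa1, Hsp90ab1, Hspa8 and Hspe1 have the short bars, 0.62 to 0.84, and most DnaJ genes have bars above 2. A short bar does not mean a narrow range between libraries.

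DESeq2, run as an alternative, gave 43 members an adjusted p and called 2 of them, while 15% of all genes with an adjusted p were called, 12.6% higher and 2.39% lower. Dnajc24, a DnaJ protein of diphthamide synthesis, was counted 2859, 1643 and 0 times in knockouts 1, 2 and 3 and not once in the controls. Pooled over the group, that is at least 1233-fold higher with a floor of 3 counts (DESeq2 adjusted p = 0.00877). The bound covers counting error and not the spread between libraries. Dnajc18 was counted 1, 1 and 0 times in the knockouts, against 0, 900 and 780 times in the controls. The knockout total over the control total, scaled by depth, was 0.000978 with a 95% exact binomial counting interval of 0.000118 to 0.00354 (DESeq2 adjusted p = 0.0101). For each, 1 library of the higher genotype was at 0, and neither was kept by the filter of the edgeR fit. Limma voom called 0 of the 47 members and 1.54% of all tested genes, with 3 members (Dnaja3, Dnajc2 and Hsp90aa1) at an unadjusted p under 0.05 and higher in the knockout, where 11% of all tested genes were.

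The knockout libraries detected more chaperone genes than the control libraries. At 10 counts or more, knockouts 1, 2 and 3 detected 48, 50 and 41 of the 69 members and controls 1, 2 and 3 detected 33, 30 and 36, so the genotypes did not overlap. The means were 46.3 ± 4.73 in the knockout and 33.0 ± 3.0 in the control (SD, n = 3 each), a ratio of 1.40. The same ratio over all genes of the table was 1.45, with 5790 to 7209 genes detected in the knockouts and 4258 to 4863 in the controls, and the chaperones' ratio was near that background. After all libraries were thinned to 7486359 counts, the ratio was 1.41 for the members and 1.43 for all genes. Among the 11 Dnajb genes the knockouts detected 7, 6 and 7, against 5, 0 and 6 in the controls. Among the 23 Dnajc genes knockouts 1, 2 and 3 detected 13, 16 and 10, against 9, 10 and 8 in controls 1, 2 and 3.

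**Figure D2:**
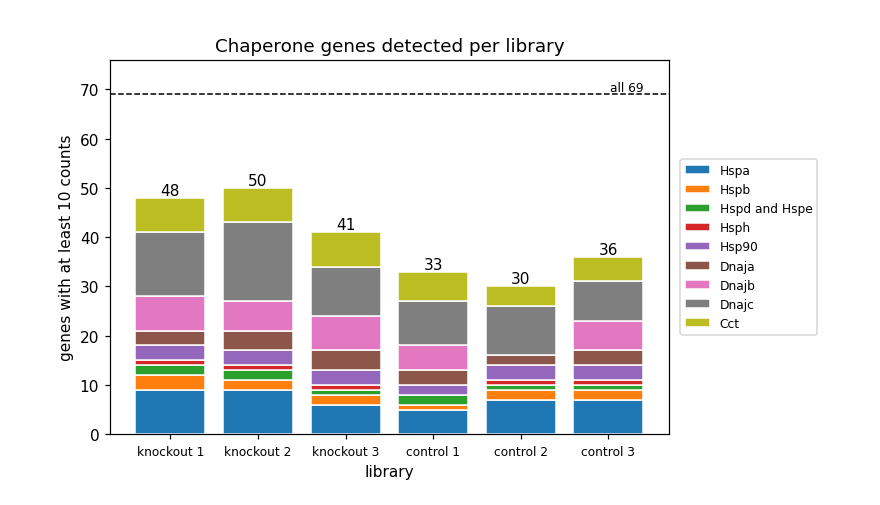
Chaperone genes with at least 10 counts in each library, stacked by family, with the total above each bar. The 3 knockout libraries reach 41 to 50 of 69 genes and the 3 control libraries 30 to 36.

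Most members were present in some libraries and at 0 in others. Of the 69, 66 reached 10 counts in some library, and 52 had 0 counts in at least 1 library. All 6 libraries detected 13 members, 19.7% of those 66, where 9.99% of the 11977 genes detected anywhere were detected in all 6. These were Hspa5, Hspa8, Hspa9, Hspb1, Hspe1, Hsp90aa1, Hsp90ab1, Dnaja1, Dnajc8, Dnajc19, Cct2, Cct5 and Cct6a. Within them the highest library exceeded the lowest by a median of 7.73-fold, beside 8.57-fold over the 1196 genes of the table detected in all 6, from 2.41-fold for Hspb1 to 26.0-fold for Dnaja1. Another 13 members (19.7% of 66) were detected in knockouts only and 4 (6.06%) in controls only, where the shares over all genes detected anywhere were 31.8% and 12.2%. Of the members 0 were detected in all 3 libraries of one genotype and in no library of the other. Over the genes detected anywhere this pattern was rare too, with 274 (2.29%) for the knockout and 16 (0.134%) for the control.

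**Figure D3:**
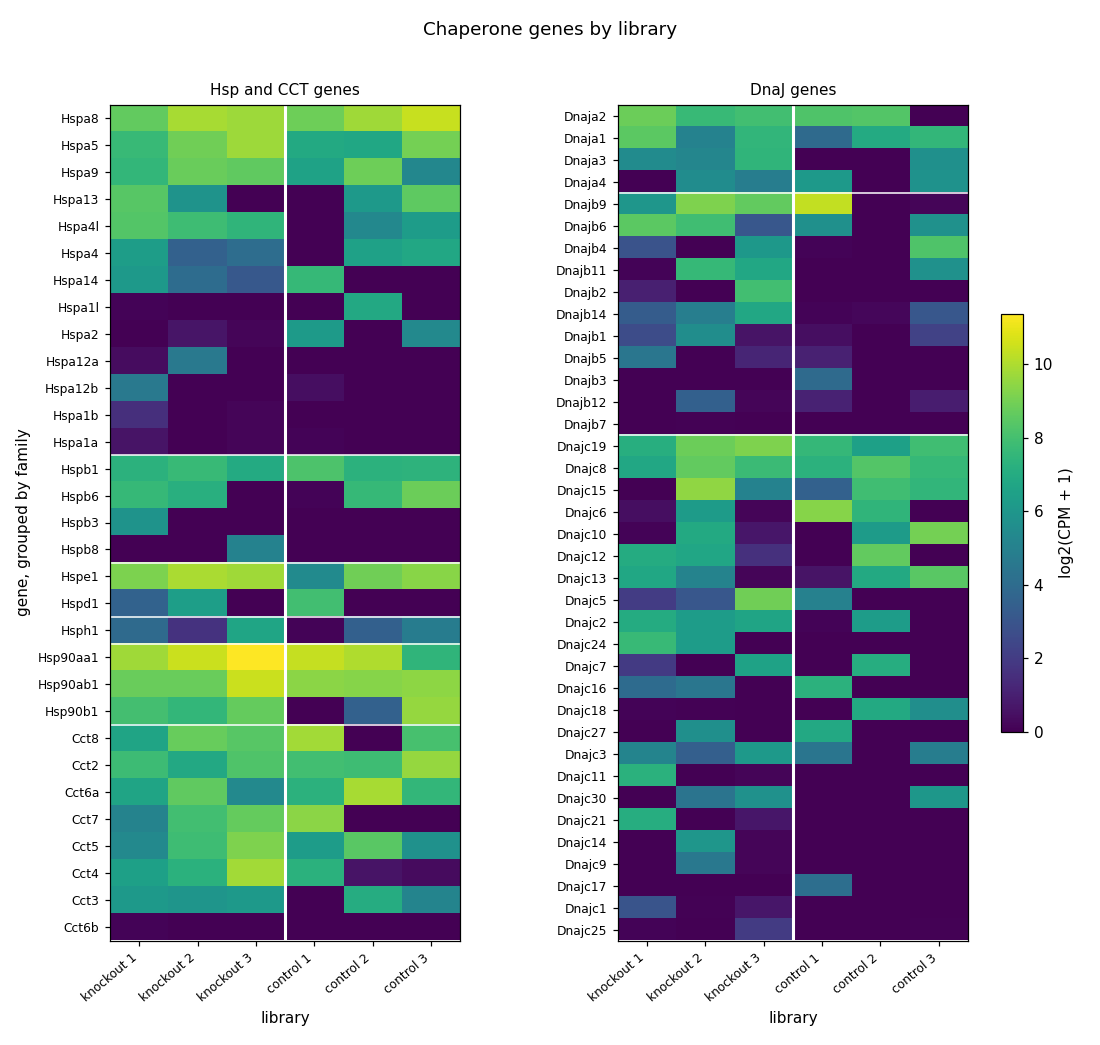
Level of each of the 69 members in each library as log2(CPM + 1), knockout libraries left of the white line and control libraries right of it, with genes ordered by mean level within a family. Dark cells are at or near 0; Hsp90aa1, Hsp90ab1, Hspa8 and Hspe1 are bright in nearly every library, and most DnaJ rows are broken by dark cells in both genotypes.

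Together the members took 7336, 10947 and 13753 CPM in knockouts 1, 2 and 3 and 8861, 8139 and 9104 CPM in controls 1, 2 and 3. The mean was 10679 ± 3217 CPM in the knockout, against 8701 ± 502 CPM in the control (SD, n = 3 each), and knockout 1 lay below every control. By length-scaled level (FPKM, averaged over all 6 libraries), Hspe1 led with 779.9, followed by Hsp90aa1 at 439.9, Hspa8 at 388 and Dnajc15 at 302. Dnajc15 owed its place to knockout 2, at 1102 FPKM, and averaged 142 FPKM over the other 5 libraries, under the 286 of Hsp90ab1 over all 6. Hspe1 averaged 1047 FPKM in the knockout and 513 in the control. The libraries of neighbours in this order overlapped.

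The 3 Hsp90 genes led the families in mean summed CPM in both genotypes, but were the highest family in a single library, knockout 3. Hsp90aa1, the stress-inducible cytosolic form (chr12:110691036-110696395), was at 864, 1418 and 2670 CPM in knockouts 1, 2 and 3 and at 1349, 1046 and 176 CPM in controls 1, 2 and 3. It was the most counted member in every library except control 3. It averaged 1651 ± 925 CPM in knockout libraries, against 857 ± 609 CPM in control libraries (SD, n = 3 each), a log2 fold change of 0.95 ± 0.62 (edgeR adjusted p = 0.9998), and the genotypes overlapped. Hsp90ab1, the constitutive cytosolic form (chr17:45567778-45573261), was at 441, 444 and 1403 CPM in the knockouts and at 675, 639 and 693 CPM in the controls (log2 fold change 0.22 ± 0.68). Its control libraries lay close together, and knockout 3 alone lay above them. Hsp90b1, which encodes GRP94 of the endoplasmic reticulum (ER), was at 251, 184 and 414 CPM in the knockouts and at 0, 10.7 and 759.9 CPM in the controls (log2 fold change 0.24 ± 1.86). The control values of Hsp90b1 spanned the whole range of the knockouts, with control 3 the highest library of all, and its log2 fold change was 6.05 without control 3. Summed, the family was at 1557, 2045 and 4487 CPM in the knockouts and at 2024, 1696 and 1629 CPM in the controls. The log2 ratio of the knockout to the control mean was 0.60, and 0.01 without knockout 3.

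Hsp70 genes split into a few that every library held and many that came and went. Hspa8, the constitutive cytosolic Hsp70 that also strips clathrin from vesicles (chr9:40801276-40805202), was at 397, 954 and 852 CPM in knockouts 1, 2 and 3 and at 473, 854 and 1370 CPM in controls 1, 2 and 3 (log2 fold change -0.19 ± 0.63). Hspa5, the ER form known as BiP (chr2:34772090-34776529), was at 203, 489 and 845 CPM in the knockouts and at 119, 109 and 512 CPM in the controls (log2 fold change 1.09 ± 1.10). Hspa9, the mitochondrial form, was at 183, 444 and 386 CPM in the knockouts and at 94.0, 464 and 37.6 CPM in the controls (log2 fold change 0.96 ± 1.49). In these 3 genes the genotypes overlapped, and the lowest library of Hspa5 and Hspa9 was a control. Hspa13, a smaller Hsp70 relative of the ER, was at 342, 56.5 and 0 CPM in the knockouts and at 0, 70.4 and 379 CPM in the controls (log2 fold change 0.15 ± 2.78). Hspa14, the ribosome-associated partner of Dnajc2, was at 67.8, 15.1 and 7.90 CPM in the knockouts and at 194, 0 and 0 CPM in the controls. Hspa2 and Hspa1l, known from the testis, had at most 12 counts in any knockout; in controls 1, 2 and 3, Hspa2 had 836, 0 and 663 counts and Hspa1l 0, 869 and 0 counts. Hspa12a reached 498 counts in knockout 2 and Hspa12b 323 in knockout 1, with at most 4 counts in any other library.

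The classic stress-inducible Hsp70 genes were nearly absent. Hspa1a had 7, 0 and 1 counts in the 3 knockouts, against 1, 0 and 0 in the 3 controls. Hspa1b had 26, 0 and 1 in the knockouts, against 0 throughout the controls. Their near-identical sequence means that reads could be split between them or dropped. Dnajb1, the DnaJ protein induced with them, was at 5.17, 46.2 and 0.494 CPM in the knockouts and at 0.344, 0 and 3.73 CPM in the controls (log2 fold change 3.74 ± 3.20). The 18 immediate early genes, which tissue dissociation can induce, stood at a summed 1474, 1370 and 1442 CPM in the knockouts, against 1340, 1358 and 2311 CPM in the controls. Among the 14 of them that were tested, 0 had an unadjusted p under 0.05 in edgeR; the smallest p values belonged to Nr4a1 (log2 fold change 5.48 ± 3.10), Klf2 (log2 fold change -2.76 ± 3.12) and Junb (log2 fold change 2.62 ± 3.20), all transcription factors, and all control counts of the 3 genes lay in control 3, with 11, 13055 and 180 counts. Without it, fitted against controls at 0, they were at 9.95, 11.83 and 11.02.

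Of the Hsp110 genes, Hspa4l was the one tested member averaging above 100 CPM over all 6 libraries whose genotypes did not overlap. Hspa4l (chr3:40744500-40796103) was at 323, 229.9 and 173 CPM in knockouts 1, 2 and 3 and at 0, 39.0 and 77.0 CPM in controls 1, 2 and 3. It averaged 242 ± 75.9 CPM in knockout libraries, against 38.6 ± 38.5 CPM in control libraries (SD, n = 3 each), a log2 fold change of 2.88 ± 2.68 (edgeR adjusted p = 0.9998). The lowest knockout exceeded the highest control for 3 of the 47 tested members, Hspa4l, Dnajb14 and Dnajc2, and the highest knockout lay below the lowest control for 0, where the shares over all tested genes were 10.4% and 2.3%. Hspa4, its close relative, was at 79.7, 10.7 and 15.8 CPM in the knockouts and at 0, 90.6 and 113 CPM in the controls (log2 fold change -0.60 ± 3.14). Hsph1 was at 14.1, 2.18 and 104 CPM in the knockouts and at 0.0861, 10.2 and 26.4 CPM in the controls (log2 fold change 1.78 ± 3.11), and its sign turned without knockout 3 (-0.26).

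Among small heat shock proteins, Hspb1 was present in every library. Hspb1, the Hsp27 gene (chr5:135887919-135889563), was at 157, 199.6 and 122 CPM in knockouts 1, 2 and 3 and at 295, 159 and 163 CPM in controls 1, 2 and 3 (log2 fold change -0.30 ± 1.95). It had the narrowest range of the members detected in all libraries. Hspb6, best known from muscle, was at 197, 143 and 0 CPM in the knockouts and at 0.0861, 197 and 459.6 CPM in the controls (log2 fold change -0.67 ± 2.59), and 0.64 without control 3. Each genotype thus held a library at or near 0. Hspb3 had 799 counts in knockout 1 and Hspb8, a partner of the co-chaperone Bag3, had 263 counts in knockout 3, and both were at 0 in the other 5 libraries. The family's sum was 411, 343 and 155 CPM in the knockouts, against 295, 357 and 622 CPM in the controls.

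The mitochondrial chaperonin pair was measured unequally. Hspe1, which encodes the Hsp10 lid (chr1:55088148-55091317), was at 566, 979 and 868 CPM in knockouts 1, 2 and 3 and at 42.8, 478 and 661 CPM in controls 1, 2 and 3, with 804 ± 214 CPM as the knockout mean, against 394 ± 317 CPM as the control mean (SD, n = 3 each), and a log2 fold change of 1.20 ± 0.84. Knockout 1 lay below control 3, so the genotypes overlapped. Hspd1, which encodes the Hsp60 ring itself (chr1:55077833-55088243), was counted 153, 1735 and 0 times in the knockouts, against 2845, 0 and 0 times in the controls. In the 3 libraries where Hspd1 was at 0, Hspe1 had 7033 counts in knockout 3, 3577 in control 2 and 10815 in control 3. Per length, Hspe1 exceeded Hspd1 by 174-fold in knockout 1 and 40.2-fold in knockout 2, whereas in control 1 the ratio was 0.589. The pair is arranged head to head. Of the 2 starts of Hspd1 in the RefSeq table, one has the window that shares 285 bases with that of Hspe1, and the other, at the end of the coordinates given here, shares 4 bases with it and held no match to either sequence. The annotated genes overlap by 96 bases on opposite strands, so that a count made without strand could move reads between them. The log2 fold change of Hspd1 was -1.53 ± 3.49, and 11.72 without control 1, the library that held all of its control counts. The latter was fitted against controls at 0 and depends on the prior count.

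CCT is a double ring in which each of 8 different subunits is present in equal number; its subunits are Tcp1, whose symbol lies outside the rule, and Cct2, Cct3, Cct4, Cct5, Cct6a, Cct7 and Cct8. Of these 8, knockouts 1, 2 and 3 detected 7, 7 and 8 and controls 1, 2 and 3 detected 6, 5 and 6. Within a library the detected subunits differed in FPKM by 7.35-fold, 5.86-fold and 26.6-fold in the knockouts and by 10.4-fold, 11.4-fold and 19.7-fold in the controls. The leading subunit per length was Cct2, Cct8 and Cct4 in knockouts 1, 2 and 3 and Cct8, Cct6a and Cct2 in controls 1, 2 and 3. No subunit led in every library of a genotype.

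Cct2 was at 223, 115 and 308 CPM in knockouts 1, 2 and 3 and at 242, 232 and 755 CPM in controls 1, 2 and 3 (log2 fold change -0.83 ± 1.25), and -0.09 without control 3. Cct6a was at 99.2, 389 and 39.8 CPM in the knockouts and at 157, 952 and 185 CPM in the controls (log2 fold change -1.06 ± 1.42). The highest library of each was a control, and the genotypes overlapped. Cct7 was at 33.6, 242 and 414 CPM in the knockouts and at 676, 0 and 0 CPM in the controls (log2 fold change -0.19 ± 2.44). Without control 1 its log2 fold change was 14.54, fitted against controls at 0, and depends on the prior count. Cct8 was at 99.3, 426 and 339.7 CPM in the knockouts and at 894, 0 and 270.5 CPM in the controls (log2 fold change -0.55 ± 1.76), and 1.08 without control 1. For these 2 subunits the highest library and a library at 0 were both controls. Cct4 was at 86.8, 152 and 904 CPM in the knockouts and at 153, 0.534 and 0.244 CPM in the controls (log2 fold change 2.67 ± 2.22). Cct5 and Cct3 had log2 fold changes of 0.92 ± 1.85 and 0.57 ± 3.07, and Cct6b, the testis form, had 1 count in all. The sum over the 8 members named Cct was 652, 1614 and 2650 CPM in the knockouts, against 2200, 1667 and 1298 CPM in the controls.

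**Figure D4:**
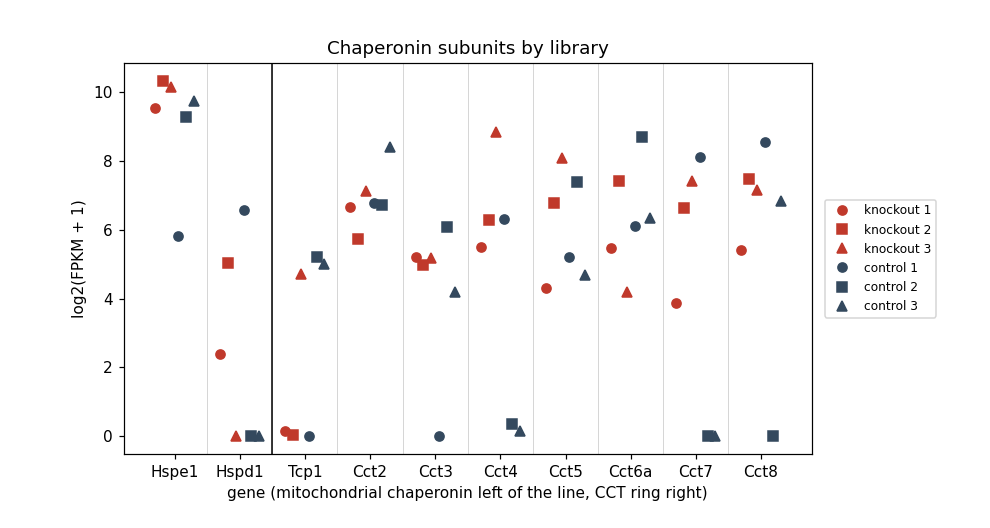
Length-scaled level of the mitochondrial chaperonin genes (left of the black line) and the 8 CCT subunits (right of it) as log2(FPKM + 1), with knockout libraries in red and control libraries in dark blue and a symbol for each library number. Hspe1 is high in every library but control 1, Hspd1 lies at 0 in 3 libraries, and Cct7 lies at 0 in controls 2 and 3.

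DnaJ proteins of class A, the general partners of Hsp70, were detected in most libraries. Dnaja1 was at 367, 31.7 and 182 CPM in knockouts 1, 2 and 3 and at 14.1, 122 and 184 CPM in controls 1, 2 and 3 (log2 fold change 1.13 ± 2.33). Dnaja2 was at 452, 201 and 241 CPM in the knockouts and at 303, 321 and 0 CPM in the controls (log2 fold change 0.67 ± 1.80). Both overlapped between genotypes. Dnaja3, the mitochondrial member, was at 44.5, 36.5 and 173 CPM in the knockouts and at 0, 0 and 51.8 CPM in the controls (log2 fold change 2.34 ± 3.40), with all control counts in control 3. Dnaja4 had a log2 fold change of -0.89 ± 3.26.

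Class B members often held most of their counts in 1 or 2 libraries. Dnajb9, the ER protein ERdj4 that the unfolded protein response induces (chr12:44205897-44210068), was at 61.3, 579 and 405 CPM in knockouts 1, 2 and 3 and at 1310, 0 and 0.122 CPM in controls 1, 2 and 3. A single control thus held 15211 of its 15213 control counts. Its log2 fold change of -0.52 ± 3.28 was 12.14 without control 1, fitted against controls at 0 and 2 counts. Dnajb6, which keeps polyglutamine proteins from aggregating, was at 364, 236 and 7.53 CPM in the knockouts and at 50.7, 0 and 53.3 CPM in the controls (log2 fold change 2.65 ± 2.86). Dnajb11, the ER partner of BiP, was at 0.0717, 194 and 112 CPM in the knockouts and at 0, 0 and 53.6 CPM in the controls (log2 fold change 2.55 ± 3.51), with all control counts in control 3. Dnajb4 was at 6.53, 0 and 65.2 CPM in the knockouts and at 0.0861, 0 and 305 CPM in the controls (log2 fold change -2.09 ± 3.51), and 8.55 without control 3. Every one of these 4 genes was near 0 in at least 1 control. Dnajb14, an ER membrane protein, was at 8.83, 28.3 and 114 CPM in the knockouts and at 0.0861, 0.134 and 7.51 CPM in the controls (log2 fold change 4.29 ± 3.44), without overlap. Dnajb2, a neuronal DnaJ protein, had 14, 0 and 1996 counts in the 3 knockouts, against 0 throughout the controls. Pooled over the group that is at least 551-fold higher, a bound on counting error only, with nearly all counts in knockout 3. Dnajb5 had 294, 0 and 10 counts in the 3 knockouts, against 12, 0 and 0 in the 3 controls, and Dnajb12, of the ER membrane, had 213 in knockout 2 and at most 14 elsewhere. Dnajb7 did not reach 10 counts in any library, and control 2 held 1 count over all 11 Dnajb genes.

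Among class C members, Dnajc8 and Dnajc19 were detected in all 6 libraries. Dnajc19, of the motor that pulls proteins into mitochondria, was at 142, 458 and 577 CPM in knockouts 1, 2 and 3 and at 192, 88.8 and 238 CPM in controls 1, 2 and 3 (log2 fold change 1.17 ± 1.36). Dnajc8, a spliceosome-associated protein, was at 113, 396 and 216 CPM in the knockouts and at 159, 321 and 196 CPM in the controls (log2 fold change 0.22 ± 1.61). Both overlapped between genotypes. Dnajc15, a relative of Dnajc19, was at 0, 714 and 32.1 CPM in the knockouts and at 10.4, 236 and 182 CPM in the controls (log2 fold change 0.98 ± 2.34), and -3.08 without knockout 2. Dnajc2, which sits at the ribosome exit, was at 128, 78.3 and 99.6 CPM in the knockouts and at 0.0861, 77.9 and 0 CPM in the controls (log2 fold change 2.33 ± 3.28), so that its genotypes were parted by the narrow gap between knockout 2 and control 2.

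The vesicle-related DnaJ genes were each dominated by 1 or 2 libraries. Dnajc6, which encodes auxilin, the partner of Hspa8 in clathrin uncoating (chr4:101496648-101642799), had 5, 1606 and 1 counts in knockouts 1, 2 and 3 and 7376, 1310 and 0 counts in controls 1, 2 and 3 (log2 fold change -3.48 ± 2.99). Dnajc5, the cysteine string protein of synaptic vesicles, was counted 43, 158 and 3955 times in the knockouts, against 360, 0 and 0 times in the controls (log2 fold change 3.73 ± 3.54). Dnajc13, of endosomes, was counted 1524, 709 and 1 times in the knockouts, against 6, 901 and 5857 times in the controls (log2 fold change -1.43 ± 2.96). For Dnajc6 and Dnajc13, libraries of both genotypes stood near 0, and for Dnajc5 only controls 2 and 3 were at 0. Several others were found in a single genotype: Dnajc11 of the inner mitochondrial membrane and Dnajc21 of ribosome assembly had 2105 and 1892 counts in knockout 1, Dnajc14 and the histone co-chaperone Dnajc9 had 1302 and 481 in knockout 2, and each had at most 5 in the other libraries. Dnajb3 and Dnajc17 had 167 and 187 counts in control 1 and 0 elsewhere. Dnajc1, an ER membrane protein at the ribosome, was counted 93, 1 and 5 times in the knockouts and not once in the controls. Dnajc25 had 24 counts in knockout 3 and at most 1 elsewhere, and Dnajc27 had 1054 in knockout 2 and 1329 in control 1 with 0 elsewhere. The remaining tested class C members, Dnajc3, Dnajc7, Dnajc10, Dnajc12, Dnajc16 and Dnajc30, had log2 fold changes between -2.21 and 1.23 with SE between 3.09 and 3.56.

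**Figure D5:**
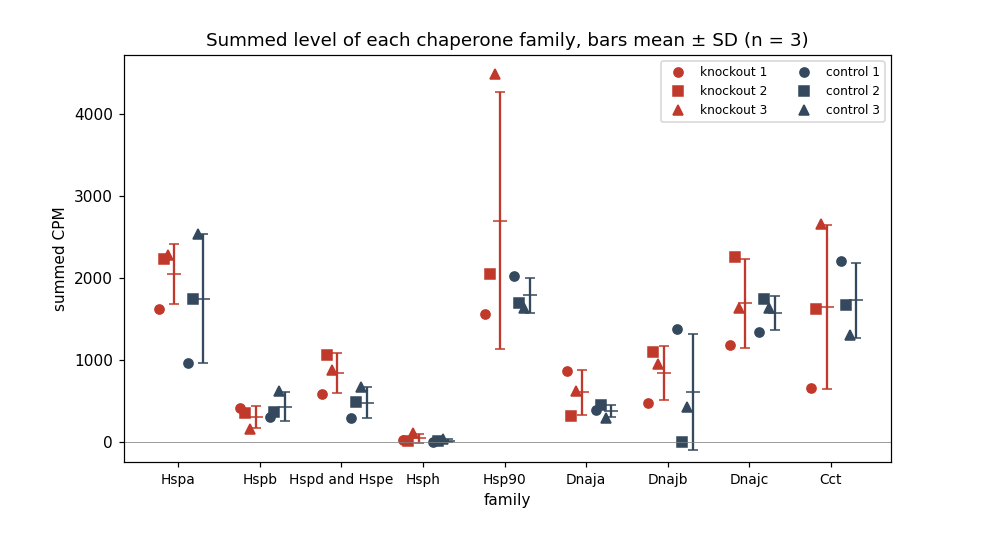
Summed CPM of each family, with a symbol for each library, knockout in red left of control in dark blue, and bars giving mean ± SD (n = 3). The genotypes overlap in every family; knockout 3 is the highest library for Hsp90 at 4487 CPM and control 2 the lowest for Dnajb at 0.134 CPM.

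Grouped by known compartment, a grouping chosen after their values were seen, the 8 mitochondrial members (Hspa9, Hspd1, Hspe1, Dnaja3, Dnajc11, Dnajc15, Dnajc19 and Dnajc30) summed to 1096, 2733 and 2089 CPM in knockouts 1, 2 and 3 and 584, 1267 and 1233 CPM in controls 1, 2 and 3. The mean was 1973 ± 825 CPM in the knockout, against 1028 ± 385 CPM in the control (SD, n = 3 each), and knockout 1 lay between the controls. A set of 8 ER members (Hspa5, Hspa13, Hsp90b1, Dnajb9, Dnajb11, Dnajc1, Dnajc3 and Dnajc10) summed to 899, 1631 and 1846 CPM in the knockouts, against 1450, 265 and 2243 CPM in the controls. The set is not complete, as it leaves out Dnajb12 and Dnajb14 of the ER membrane, given above. In control 1, Dnajb9 made up 90.4% of the ER sum, while Hsp90b1 was at 0, and in control 3 Hsp90b1 led with 33.9%. Each library was the highest for some of the 66 members detected anywhere: knockouts 1, 2 and 3 for 13, 9 and 14 members and controls 1, 2 and 3 for 13, 7 and 10.

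Control 3, which detected all 14 endothelial markers, was the highest library for Hsp90b1, Hspa8, Hspa4, Hspa13, Hspb6, Cct2, Dnajb4, Dnajc10, Dnajc13 and Dnajc30. The part of those markers in these values was not tested, and the fit was repeated without the library. Besides the turns already given for Hspb6 and Dnajb4, the log2 fold changes of Hspa8 (0.24), Hspa4 (0.11), Dnajc10 (0.40) and Dnajc13 (0.14) then turned positive. Those of Dnaja3 (12.99), Dnajb11 (13.24) and Dnajc30 (11.14) were then fitted against controls at 0 and depend on the prior count. Hspa5 was then at 2.14, Hspa13 at 2.42, Hspa4l at 4.02, Hsph1 at 3.20, Dnajb1 at 6.37 and Dnajb14 at 8.71. Shifts in the other tested members, Hsp90b1 aside, were 0.74 or less, with Hsp90aa1 at 0.43 and Dnaja2 at 0.05, and 0 members passed the adjusted threshold.

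Genes that work with the chaperones gave few differences. Of 31 co-chaperones of Hsp70 and Hsp90, 19 were tested and 0 passed the adjusted threshold in edgeR, with 12 log2 fold changes positive, 7 negative and a median of 0.21. Of these 19, 1 had an unadjusted p under 0.05 and was higher in the knockout, where 4.49% of all tested genes were. This was Hspbp1, a nucleotide exchange factor of Hsp70. Hspbp1 was counted 1444, 1162 and 860 times in the 3 knockouts and not once in the controls (edgeR adjusted p = 0.681). Pooled over the group that is at least 949-fold higher, a bound on counting error only. DESeq2 and limma voom called it, with adjusted p of 0.00279 and 0.0337. DESeq2 called 12.6% of genes with an adjusted p as higher in the knockout, and limma voom called 1.54% of all tested genes. Of all genes detected anywhere, 2.29% were likewise detected in all 3 knockouts and in no control. Bag3, which links Hsp70 to Hspb8 and autophagy, was counted 1, 900 and 1304 times in the knockouts, against 0, 0 and 46 times in the controls (log2 fold change 6.14 ± 4.02). All its control counts lay in control 3, without which the value, fitted against controls at 0, was 12.61. Hyou1, the Hsp110 of the ER, was counted 20, 31 and 1 times in the knockouts, against 285, 859 and 224 times in the controls (log2 fold change -5.34 ± 3.50), and the genotypes did not overlap. Ppid did not overlap either, at 206.9, 346.5 and 165.8 CPM in the knockouts against 45.8, 0 and 63.4 CPM in the controls. Of the 19 tested co-chaperones, 2 (Hspbp1 and Ppid) thus lay higher without overlap and 1 (Hyou1) lower. The shares over all tested genes were 10.4% and 2.3%. Among 14 genes of prefoldin, which hands substrates to CCT, and other CCT partners, 11 were tested, 6 positive and 5 negative with a median of 0.01, and 0 had an unadjusted p under 0.05. The prefoldin subunits Pfdn2 and Pfdn6 did not overlap, at 399, 229.9 and 251 CPM in the knockouts against 0.0861, 182 and 0 CPM in the controls for Pfdn2 and at 20.4, 255 and 143 CPM in the knockouts against 0, 4.01 and 5.13 CPM in the controls for Pfdn6. These were 2 of the 11 tested genes of this list, beside the 10.4% of all tested genes, and 0 lay lower without overlap. Pdcl3, a phosducin-like partner of CCT, had a log2 fold change of -0.81 ± 1.18.

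The regulators of the heat shock response were themselves uneven. Hsf1, the main heat shock factor, was counted 0, 322 and 0 times in the knockouts, against 0, 1 and 0 times in the controls, too few to test. Hsf2 was at 263, 90.9 and 14.3 CPM in the knockouts and at 427, 104 and 61.2 CPM in the controls (log2 fold change -0.58 ± 2.16). Hsbp1, which binds heat shock factor 1, was at 538, 1496 and 459 CPM in the knockouts and at 1660, 748 and 441 CPM in the controls (log2 fold change -0.18 ± 0.66). Hikeshi, which carries Hsp70 into the nucleus, had a log2 fold change of 0.78 ± 2.35. Of the 5 regulators, 3 were tested and 0 had an unadjusted p under 0.05 in edgeR, and the genotypes overlapped for each.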

How the data were processed

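RNA sequencing libraries of retinal ganglion cells, 3 knockout and 3 control, were compared from the gene tables the authors deposited. The submitters' processing notes name the mm10 build and, with no role, the tools HISAT2, HTSeq, fastp, DESeq2 and R 3.2.0. The sources used here do not give the annotation or strand setting, and without strand, overlapping antisense genes cannot be told apart; reads of near-identical copies make such genes uncertain. Per the labels' protocols, each library started from 1 ng of column-purified total RNA. The deposited counts are raw counts per gene, and the deposited FPKM divide the same counts by gene length and library total; there were 0 columns of other samples.

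The main test was edgeR 4.0.16 (TMM, filterByExpr, robust quasi-likelihood, Benjamini-Hochberg over all 5727 genes tested, threshold 0.05), run in R 4.3.3 on a design holding genotype alone. DESeq2 1.42.0 (which left 16513 genes without an adjusted p) and limma 3.58.1 (voom, and log2(FPKM + 1) or log2(FPKM + 0.1)) were alternatives, with other scalings and filters and each library left out. The FPKM filter kept genes with at least 1 FPKM in 3 libraries. Each count method was first run on simulated data, at a dispersion below that of these data and at that of these data. A pass mark was set for edgeR alone, at the lower dispersion. Recovery at the dispersion of these data is not reported here, so nothing is stated on how well the methods perform on these data.

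Named genes were the 4 members of each family with the highest mean CPM, members with an unadjusted p under 0.05 or detected in all of one genotype and none of the other, and the 3 genes with the smallest p in each of 4 pathway lists. Other members are named to account for all 69, and they, Ppid and Tcp1 were picked with their values known. The members and lists were chosen with earlier results of these data known. Of 167 symbols on 13 lists, 155 were in the table. All 69 members were found in RefSeq GRCm38.p6 (mm10), the source of coordinates. Thinning was without replacement, in Python 3.11.15. Detection means at least 10 counts.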

Additional observations from a re-analysis of the deposited data

How the results depend on the processing

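No member passed the adjusted threshold in any edgeR fit, and 21 of the 40 named genes with a log2 fold change kept its sign in every alternative. The call counts depended on the tool: 2 members were called with DESeq2, 1 higher and 1 lower, and 0 in every other setting. Members at an unadjusted p under 0.05 and higher in the knockout numbered 4 of 69 without the filter (1.97% of all genes), 2 with DESeq2 (6.18%), 3 of 47 with limma voom (11%), 1 in each limma fit on FPKM (1.46% to 6.87%) and 1 to 6 of 49 to 51 with a library left out (3.73% to 5.27%). Lower were 2 with DESeq2 (1.32%) and 0 to 1 with a library left out (0.413% to 1.17%). With 1 library left out, 5 to 9 of the 47 members did not overlap as higher in the knockout and 0 to 3 as lower, beside 13.6% to 19.4% and 3.74% to 7.96% of all tested genes. The log2 ratio of the Hsp90 family ranged from 0.01 (without knockout 3) to 0.87. The difference in detected members, 13.3, was 17.0 at 1 count, 11.3 at 50 counts and 13.3 after thinning.

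The replicate numbers share only a number: the correlation of deviations of same-numbered libraries was -0.02, 0.03 and -0.01. With a replicate block 3 members were higher at an unadjusted p under 0.05 (3.27% of all tested genes) and 0 were called, and signs turned for Cct7 (11.99), Cct8 (0.69), Dnajb4 (1.02), Dnajb9 (10.69), Dnajc15 (-2.66), Hspa13 (-0.03), Hspd1 (0.50), Hikeshi (-1.32) and Klf2 (3.35).

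Signs also turned, with the cause not tested, in these fits. With DESeq2's size factors Dnajc8 was at -0.06, Hsp90b1 at -0.14 and Hspa13 at -0.33. With column totals Cct7 was at 0.04 and Hspa13 at -0.21. DESeq2 gave Dnajc8 -0.07, Hsp90ab1 -0.01, Hsp90b1 -0.17 and Hspa13 -0.37. Limma voom gave Cct7 7.08, Cct8 3.08, Dnajb4 1.11, Dnajb9 7.16, Dnajc15 -2.87, Hsp90ab1 -0.29, Hspd1 2.36, Hsbp1 0.74, Hikeshi -2.08 and Klf2 2.53. On log2(FPKM + 1), with and without a filter, Cct7 was at 3.27, Cct8 at 1.56, Dnajb9 at 3.86, Dnajc15 at -1.66, Dnajc8 at -0.02, Hsp90ab1 at -0.04, Hspa13 at -0.15, Hspd1 at 0.28, Hikeshi at -0.56 and Klf2 at 0.17. On log2(FPKM + 0.1) these were 5.45, 2.65, 5.85, -2.75, -0.02, -0.04, -0.15, 1.29, -1.58 and 1.41 in the same order, and Dnajb4 was at 0.37. Hspbp1, outside the members, passed with DESeq2 and limma voom.

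With 1 library left out in turn, log2 fold changes that turned sign ranged from -2.25 to 0.00 for Cct6a, -0.90 to 14.54 for Cct7, -1.19 to 1.08 for Cct8, -4.66 to 8.55 for Dnajb4, -1.17 to 12.14 for Dnajb9, -3.08 to 1.53 for Dnajc15, -0.31 to 0.50 for Dnajc8, -0.45 to 0.51 for Hsp90ab1, -0.40 to 6.05 for Hsp90b1, -2.38 to 2.42 for Hspa13, -0.47 to 0.24 for Hspa8, -0.59 to 0.21 for Hspb1, -1.54 to 0.64 for Hspb6, -3.75 to 11.72 for Hspd1, -0.26 to 3.20 for Hsph1, -2.0 to 0.97 for Hsf2, -0.82 to 0.71 for Hsbp1, -1.04 to 1.36 for Hikeshi and -4.56 to 11.83 for Klf2. The upper ends for Cct7, Hspd1 and Klf2 were fitted against controls at 0 and depend on the prior count. The medians of all tested genes moved too, from -0.13 with DESeq2's size factors to 1.58 with voom. Depth limits values under 0.142 to 0.401 CPM per library. With 3 libraries per genotype, the common biological coefficient of variation in edgeR was 2.04. The SE of a gene did not simply follow its own range. Hspb1, with a 2.41-fold range between libraries, had an SE of 1.95, and Hspe1, with a 22.9-fold range, had 0.84.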
